A study of Mus musculus with 6 samples.

Results

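Imprinted growth genes are transcribed mainly from the copy inherited from 1 parent. Here 10 of them were followed in liver tumors, namely H19, Igf2, Dlk1, Meg3, Rian, Mirg, Peg3, Plagl1, Cdkn1c and Grb10. They were found by gene symbol among the 24063 genes of the raw count table, and all 10 had a row. RNA sequencing covered tumors of male C57BL/6 mice given diethylnitrosamine (DEN), a liver carcinogen, at 25 mg/kg when 15 days old and examined at the 24-week time point. The 3 WT libraries came from NR2E3+/+ tumors and the 3 Nr2e3-/- libraries from tumors of knockout mice, which lack the nuclear receptor NR2E3. Every library in both groups came from DEN-exposed tumor tissue, and no untreated or non-tumor liver was part of the comparison. The question was whether loss of NR2E3 altered transcription in these tumors. The labels do not say that the libraries of a group came from separate mice, so the p-values measure only the spread between these samples.

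In imprinted regions, a mark of DNA methylation set in the egg or sperm decides which parental copy is used. Paternally expressed members such as Igf2, Dlk1, Peg3 and Plagl1 mostly favour fetal growth, whereas maternally expressed members such as H19, Cdkn1c and Grb10 mostly restrain it. Many of them are abundant in fetal liver and are silenced after birth, and some reappear in liver tumors. Genes of 1 imprinted cluster share control elements: H19 and Igf2 form a pair on the end of mouse chromosome 7, and Dlk1, Meg3, Rian and Mirg lie in a row on chromosome 12.

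Several of the noncoding members carry microRNA genes inside their transcribed region. RefSeq (GRCm38.p6) placed 17 microRNA genes with 32 mature products inside members, of which 10 lay in Mirg, 3 in Rian, 2 in Meg3, 1 in H19 and 1 in Igf2. The mature sequences for the genes of H19, Igf2 and Meg3 on which the results below turn are shown 5′ to 3′, with the seed (bases 2 to 8, the stretch that pairs with target transcripts) in capitals. The seeds of these 5 products all differ.
miR-675-5p (in H19): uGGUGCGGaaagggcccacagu
miR-675-3p (in H19): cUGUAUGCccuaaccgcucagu
miR-483-5p (in Igf2): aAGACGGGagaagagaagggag
miR-483-3p (in Igf2): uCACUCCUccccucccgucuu
miR-1906 (in Meg3): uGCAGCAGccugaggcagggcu

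Promoter sequences, from 250 bases before to 50 bases after an annotated start, were given in RefSeq (GRCm38.p6) for 8 of the 10 members, as 13 windows. Those of Meg3 and Peg3 are shown because Meg3 heads the noncoding part of the chromosome 12 cluster and Peg3 had the lowest p-value of the members. Both held the cAMP response element TGACGTCA, which is printed in capitals. It was found in no other member window and in 1.79% of 32851 promoters of the same length.
Meg3 (chr12:109540746-109541045, plus strand): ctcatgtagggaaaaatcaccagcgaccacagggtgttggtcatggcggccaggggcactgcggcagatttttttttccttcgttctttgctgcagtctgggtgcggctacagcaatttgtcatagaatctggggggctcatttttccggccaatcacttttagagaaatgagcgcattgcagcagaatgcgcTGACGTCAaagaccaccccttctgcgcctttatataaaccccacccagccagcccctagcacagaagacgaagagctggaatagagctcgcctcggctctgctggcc
Peg3 (chr7:6730370-6730669, minus strand): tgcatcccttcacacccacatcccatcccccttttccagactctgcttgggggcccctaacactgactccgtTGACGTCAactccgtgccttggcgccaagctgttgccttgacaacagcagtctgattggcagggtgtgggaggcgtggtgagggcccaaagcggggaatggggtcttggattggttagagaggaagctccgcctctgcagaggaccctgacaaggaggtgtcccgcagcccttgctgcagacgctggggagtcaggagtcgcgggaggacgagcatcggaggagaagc
The element began at position -57 from the start of Meg3 and at position -178 from that of Peg3. All motifs were searched on both strands. AAGTCA, a sequence bound by NR2E3, lay in a window of Igf2 and in another window of Meg3, against 15.1% of all promoters. The GC box GGGCGG was present in windows of Grb10, Igf2 and Plagl1 (35.7% of all promoters), and the TATA box TATAAA in the Meg3 window shown (13.6%), where matches on both strands overlap. These matches describe the letters in the windows only.

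Library depth ranged from 15376261 to 28690279 counts, and 8 members passed the filter on low counts, as did 13572 genes in all. Dlk1 and Mirg did not pass. Levels are given below as normalized CPM, that is counts per 1000000 reads after TMM scaling, and differences between genotypes as log2 fold changes from edgeR with their standard errors, negative where the Nr2e3-/- tumors were lower. Nr2e3 itself had 0 counts in every library, WT included, so its count gives no check of the labels. The liver identity of the tissue was plain in the hepatocyte markers, all 6 of which were present and whose summed level was 129900 to 159600 CPM in WT and 116200 to 135500 CPM in Nr2e3-/- tumors. Nr2e3-/- replicate 1 stood apart, since its median distance over all genes tested was 0.715 log2 units to its own group but 0.525 to the WT group. The other 5 libraries lay nearer to their own group. Calls made without this library are therefore also given for the members and, by number, for the lists compared between genotypes.

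No member differed between genotypes at a Benjamini-Hochberg adjusted p under 0.05 in edgeR's quasi-likelihood test, a threshold that 0.0958% of all genes tested passed. At an unadjusted p under 0.05, 1 of the 8 members passed (Peg3, lower in Nr2e3-/-), against 21.5% of all genes tested. DESeq2 called 1 member (Peg3, with 8% of genes called), and so did limma-voom with sample quality weights (17.4% of genes called). The log2 fold change was negative for 7 of the 8 members, of which Meg3 and Rian turned positive with limma-voom and H19, Igf2, Meg3, Rian and Grb10 when 1 library was left out. The median was -0.13 beside 0.01 over all genes tested, and -0.51 without WT replicate 3, -0.35 without Nr2e3-/- replicate 2 and -0.63 without Nr2e3-/- replicate 3. Peg3 and Cdkn1c had groups without overlap, and non-overlap occurred for 26.8% of all genes tested. Because these are whole tumors, fewer cells of a type and less RNA per cell cannot be told apart.

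**Figure D1:**
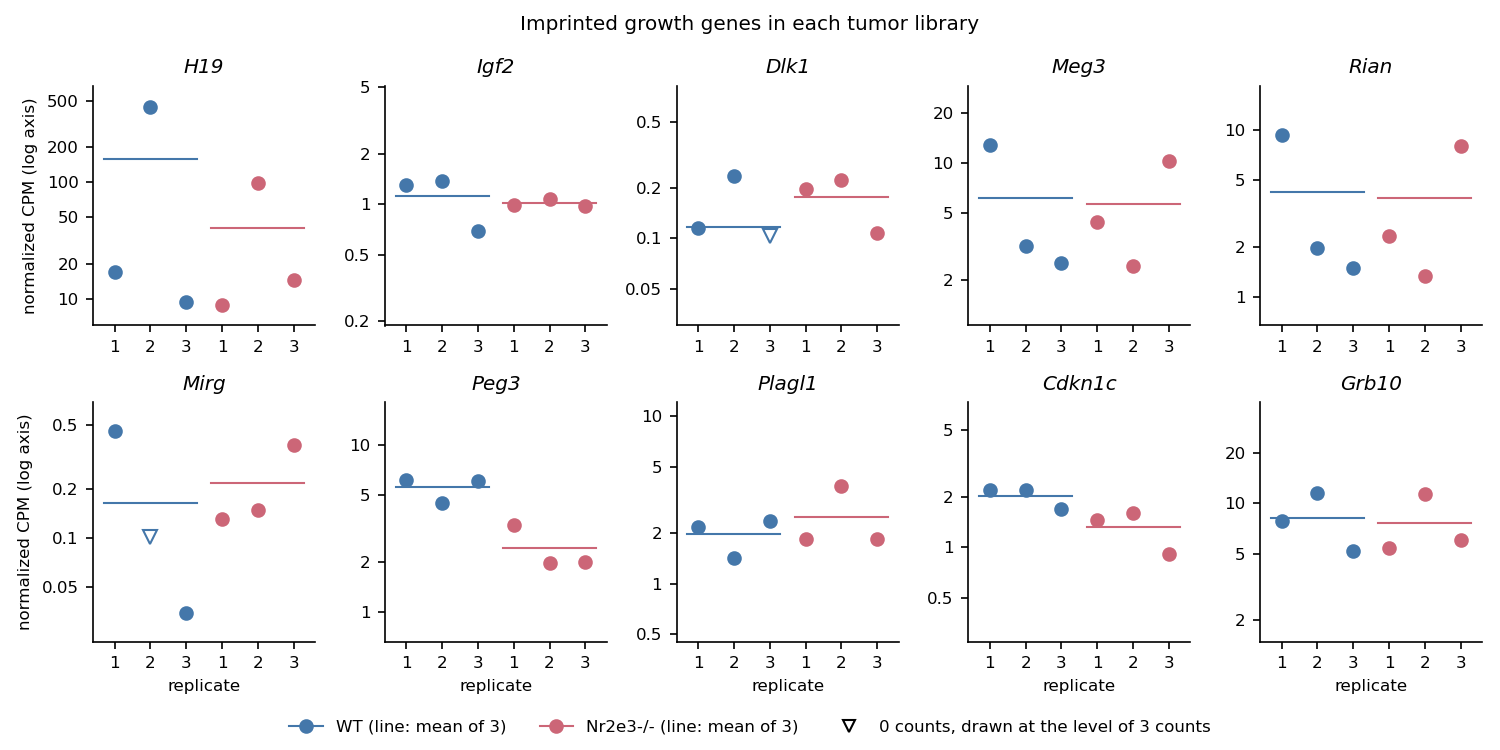
Normalized CPM (vertical log axis, a separate range for each gene) of the 10 members in 3 WT (blue) and 3 Nr2e3-/- (red) tumor libraries, with a line at each group mean. H19 reached 447 CPM in WT replicate 2 and 98.0 CPM in Nr2e3-/- replicate 2 and was under 18 CPM elsewhere, Meg3 and Rian were highest in WT replicate 1 and Nr2e3-/- replicate 3, and Peg3 and Cdkn1c did not overlap between groups.

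H19 is a long noncoding RNA transcribed from the maternal copy, located at chr7:142575530-142578146 on the minus strand (RefSeq, GRCm38). It varied from tumor to tumor far more than between genotypes. H19 stood at 17.05, 447 and 9.40 CPM in WT replicates 1 to 3 and at 8.87, 98.0 and 14.6 CPM in Nr2e3-/- replicates 1 to 3. So 1 tumor of each genotype held a high level, the other 4 were low, and the groups overlapped. In raw counts this was 13212 in WT replicate 2 and 2639 in Nr2e3-/- replicate 2, against 134 to 444 in the others. H19 ranked number 248 by count among the genes of WT replicate 2 and number 8146 in Nr2e3-/- replicate 1.

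The highest H19 level was 50.4 times the lowest, with a ratio of 47.6 within WT and 11.04 within Nr2e3-/-. The pooled SD within groups was 2.48 log2 units, the third highest of 13572 genes tested. Means were 157.8 ± 250.5 CPM (SD, n = 3) in WT and 40.5 ± 49.9 CPM (SD, n = 3) in Nr2e3-/-. The log2 fold change was -1.95 with a standard error of 1.52 and an edgeR adjusted p of 0.474, and an exact permutation test gave p = 0.6. The difference was thus within the spread between replicates, and its sign depended on 1 library. Leaving out WT replicate 2 turned the log2 fold change to 1.62, and leaving out Nr2e3-/- replicate 2 took it to -3.74.

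The microRNA gene Mir675 (chr7:142577064-142577147, minus strand) lies within H19, and its row followed the host. Its counts were 20, 730 and 15 in WT and 5, 118 and 15 in Nr2e3-/- tumors. H19 held 17.9 to 26.8 counts for each Mir675 count in the 6 libraries, a narrow range beside the 50.4-fold range of H19. Among all genes tested, Mir675 had the profile nearest to H19, with a root mean square difference of 0.19 log2 units over the 6 libraries after each gene was centred on its mean. The next was Mfi2, which encodes the iron-binding protein melanotransferrin, at 0.95. Mir675 lies in an H19 exon, and how reads in bases of both genes were assigned is not given in the sources used here, so the rows are not separate measurements. In addition, TruSeq libraries of long RNA do not measure the mature miR-675 products printed above.

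Igf2, the fetal insulin-like growth factor expressed from the paternal copy (chr7:142650768-142666816, minus strand), stayed low in all tumors. Its levels were 1.31, 1.39 and 0.694 CPM in WT and 0.993, 1.08 and 0.973 CPM in Nr2e3-/-, from 15 to 41 counts per library. The WT tumors spanned the Nr2e3-/- values, and the log2 fold change was -0.15 with a standard error of 0.33 (edgeR adjusted p = 0.813). Its highest level was 2.0 times its lowest, so Igf2 did not share the range of H19. The number of H19 counts for each Igf2 count was 13.1, 322 and 13.6 in WT and 8.93, 91.0 and 14.9 in Nr2e3-/- tumors, high in the same 2 libraries in which H19 was high. Mir483, the microRNA gene in Igf2 whose products are printed above, had 0 counts in every library, with a count of 0 allowing up to 3. The genes most like Igf2 in profile were Ace, which encodes angiotensin-converting enzyme, and 2010204K13Rik, both at 0.09 log2 units.

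Markers of other cells were set beside the H19 pattern. The 7 immune markers summed to 98.2, 126.4 and 120.6 CPM in WT and to 85.2, 205.6 and 101 CPM in Nr2e3-/- tumors. Of these 7, 4 had WT replicate 2 and Nr2e3-/- replicate 2 as their highest libraries, as H19 did, against 6.59% of all genes tested. Ptprc, the common leukocyte antigen, stood at 13.6, 22.0 and 14.9 CPM in WT and 9.47, 32.9 and 14.3 CPM in Nr2e3-/-, a range far narrower than that of H19. In turn, 1 of the 9 stromal, 1 of the 8 endothelial and 1 of the 6 bile duct markers showed that order, and 0 of the 6 proliferation and 0 of the 6 hepatocyte markers did. No marker list was at 0 throughout. The part of these cells in the H19 levels was not tested.

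**Figure D2:**
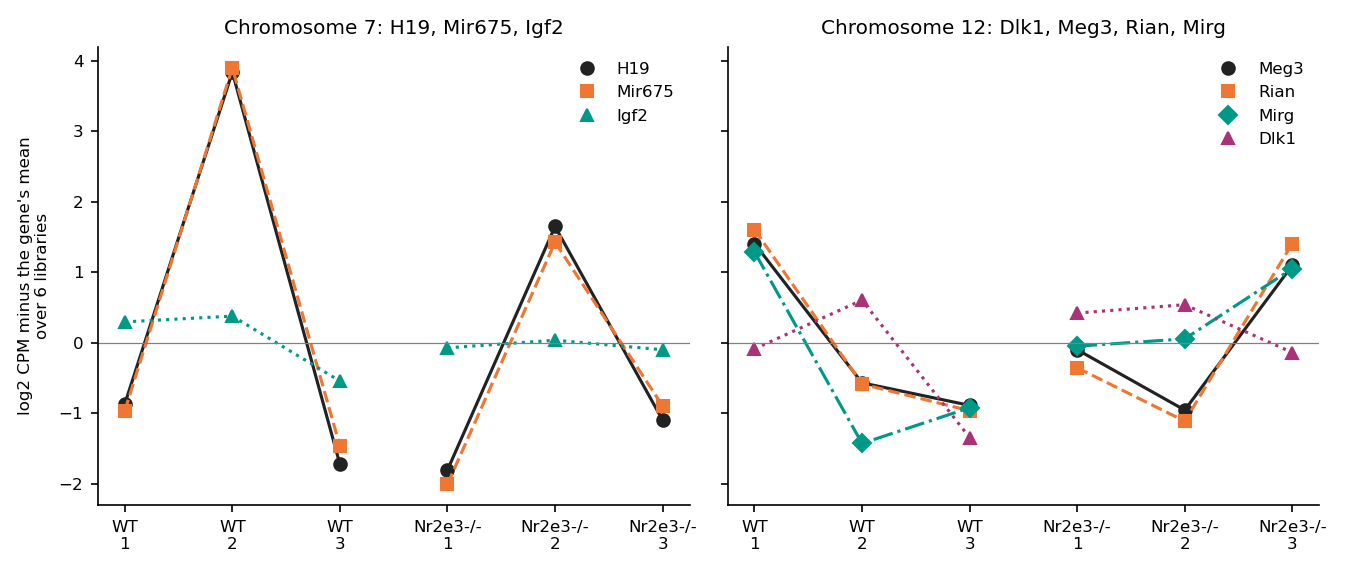
Log2 CPM of each gene minus its mean over the 6 libraries (vertical axis) for the chromosome 7 pair with Mir675 (left) and the chromosome 12 cluster (right), by library on the horizontal axis. The lines only join the points of a gene within a group, since libraries have no order. Mir675 tracked H19 while Igf2 stayed within 2.0-fold. Meg3, Rian and, on few counts, Mirg had their peaks in WT replicate 1 and Nr2e3-/- replicate 3.

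On chromosome 12, the maternally expressed noncoding RNAs Meg3 and Rian were high together in 1 tumor of each genotype. Meg3 (chr12:109540996-109571729, plus strand), a noncoding RNA with growth-restraining activity in cultured cells, stood at 12.75, 3.18 and 2.53 CPM in WT and 4.44, 2.41 and 10.3 CPM in Nr2e3-/-. Rian (chr12:109603945-109661716, plus strand), which hosts small nucleolar RNAs, stood at 9.25, 1.96 and 1.49 CPM in WT and 2.32, 1.34 and 8.06 CPM in Nr2e3-/-. Both were highest in WT replicate 1 and Nr2e3-/- replicate 3, and neither of these is a tumor in which H19 was high.

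Their highest levels were 5.28 times the lowest for Meg3 and 6.92 times for Rian. The pooled SD within groups was 1.14 log2 units for Meg3 and 1.34 for Rian, ranks 185 and 91 from the highest of 13572 genes. Group means were close. Meg3 averaged 6.15 ± 5.72 CPM (SD, n = 3) in WT and 5.71 ± 4.08 in Nr2e3-/-, a log2 fold change of -0.11 with a standard error of 0.74 (edgeR adjusted p = 0.938). Rian averaged 4.24 ± 4.35 CPM (SD, n = 3) in WT and 3.90 ± 3.63 in Nr2e3-/-, a log2 fold change of -0.12 with a standard error of 0.87 (edgeR adjusted p = 0.944). The sign rested on WT replicate 1, without which the log2 fold changes were 1.0 for Meg3 and 1.17 for Rian, and on Nr2e3-/- replicate 3, without which they were -0.86 and -1.23.

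Meg3 and Rian had each other as the nearest profile among the 13571 other genes tested, at 0.20 log2 units. The ratio of Rian to Meg3 counts moved only between 0.522 and 0.784. The next nearest gene was Aplp1, an amyloid precursor-like protein, at 0.42 from Meg3 and 0.57 from Rian, with 2.53, 0.372 and 0.590 CPM in WT and 1.32, 0.557 and 1.51 CPM in Nr2e3-/-. Of the other members, Igf2 was the closest to Meg3, at 0.88 (rank 1660), and H19 the farthest, at 2.58 (rank 13565). This distance also grows with a gene's spread, which was widest in H19 and small in Igf2. H19 was far even from Grb10 (rank 13532), which was highest in the same tumors. These 2 places therefore do not measure likeness to the Meg3 pattern. The order with WT replicate 1 and Nr2e3-/- replicate 3 on top was seen in 2.25% of all genes tested, and in 1 of the 9 stromal markers and 0 of the markers of the other 5 lists.

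Mirg (chr12:109734981-109749458, plus strand), the microRNA-rich end of the cluster, had 12, 0 and 1 counts in WT and 2, 4 and 7 counts in Nr2e3-/- tumors. These few counts were highest in the same 2 libraries as Meg3 and Rian. In levels, this was 0.461 CPM in WT replicate 1 (95% exact Poisson interval 0.238 to 0.805) and 0.379 CPM in Nr2e3-/- replicate 3 (0.152 to 0.780), and the 0 counts in WT replicate 2 allow up to 0.102 CPM. The intervals of Nr2e3-/- replicates 1 and 2 (0.0160 to 0.478 and 0.0405 to 0.380 CPM) overlap that of Nr2e3-/- replicate 3. Such intervals and limits cover counting error only. The groups overlapped (exact permutation p = 0.6). Counts in the microRNA genes nested in Meg3, Rian and Mirg were too few to compare, with 0 in all libraries for 1 of 2, 2 of 3 and 6 of 10, and Mir1906-1 in Meg3 had 3, 4 and 2 in WT and 4, 2 and 6 in Nr2e3-/-.

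Dlk1 (chr12:109452485-109463336, plus strand), the paternally expressed membrane ligand of this cluster and a marker of fetal hepatoblasts, was near the limit of detection. It had 3, 7 and 0 counts in WT and 3, 6 and 2 counts in Nr2e3-/-, that is at most 0.237 CPM (95% exact Poisson interval 0.0952 to 0.488). The 0 counts in WT replicate 3 allow up to 0.104 CPM. Its counts were not highest in the libraries with high Meg3, and no difference between genotypes was detectable at this depth (exact permutation p = 0.7). The paternally expressed Rtl1 and Dio3 of the same region were also at most at 0.132 and 0.237 CPM.

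Peg3 (chr7:6703892-6730462, minus strand) encodes a paternally expressed zinc finger protein and was the member with the lowest p-value. It stood at 6.14, 4.53 and 6.14 CPM in WT and 3.31, 1.97 and 2.001 CPM in Nr2e3-/-. All 3 Nr2e3-/- tumors were below all 3 WT tumors, and the tumor nearest to WT was Nr2e3-/- replicate 1. Means were 5.61 ± 0.928 CPM (SD, n = 3) in WT and 2.43 ± 0.766 in Nr2e3-/-, with 134 to 177 counts per WT library and 37 to 53 per Nr2e3-/- library.

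The log2 fold change of Peg3 was -1.22 with a standard error of 0.27 and an unadjusted p of 0.00236 in edgeR, and the adjusted p was 0.1002. An exact permutation test gave p = 0.1, the smallest that 3 against 3 allows. The call depended on the model. The adjusted p was 0.00307 with DESeq2 and 0.020 with limma-voom, and edgeR without Nr2e3-/- replicate 1 gave a log2 fold change of -1.49 with an adjusted p of 0.00847, where 21.8% of genes were called. The Peg3 difference stayed negative under each alternative tried, from -1.49 to -1.08, with adjusted p from 0.00307 to 0.347. The genes nearest to it in profile were Greb1l and Ptpdc1, both at 0.12 log2 units. Its imprinted neighbours Zim1, Zim3 and Usp29 had at most 2 counts in any library.

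Cdkn1c (chr7:143458339-143461059, minus strand), the maternally expressed inhibitor of cyclin-dependent kinases also called p57, had lower values in Nr2e3-/- as well, with a smaller separation. It stood at 2.19, 2.20 and 1.70 CPM in WT and 1.46, 1.60 and 0.919 CPM in Nr2e3-/-. The lowest WT tumor was only just above the highest Nr2e3-/- tumor, and counts were 17 to 65 per library. The log2 fold change was -0.61 with a standard error of 0.28 (edgeR unadjusted p = 0.0693, adjusted p = 0.265, exact permutation p = 0.1). It was between -0.86 and -0.40 under the alternatives, with no adjusted p under 0.0751. Kcnq1ot1, the paternally expressed antisense RNA of the same region, had a log2 fold change of -0.34 with a standard error of 0.23. The nearest profiles were those of Mov10, an RNA helicase, at 0.08 and of Nova2, a splicing regulator, at 0.09 log2 units.

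Markers of other cells were set beside Peg3 and Cdkn1c as well. The 8 endothelial markers summed to 389.2 to 399.7 CPM in WT and 304 to 381.7 CPM in Nr2e3-/-, but their log2 fold changes were mixed, 4 positive and 4 negative with a median of -0.06. Kdr and Emcn had lower values at an unadjusted p under 0.05 (log2 fold changes -0.61 and -0.62). That is 2 of 8 against 9.72% of all genes tested. Eng and Stab2 had log2 fold changes of -0.34 and -0.18, and Pecam1, Cdh5, Clec4g and Vwf of 0.06, 0.20, 0.11 and 0.18. In edgeR, 0 of the 8 were under the adjusted threshold. The 9 stromal markers overlapped, at 120.3 to 154.7 CPM in WT and 73.9 to 160.2 CPM in Nr2e3-/-, and 0 of them had an unadjusted p under 0.05. In the settings that called Peg3, some of these markers were called too. Without Nr2e3-/- replicate 1, edgeR called 3 endothelial (Kdr, Eng and Emcn) and 2 stromal markers (Col1a2 and Col3a1). In that setting, 21.8% of all genes were called, counting both directions. Each of these markers had a negative log2 fold change with all 6 libraries, as 4 of the 8 endothelial and 6 of the 9 stromal markers did. DESeq2 called 1 endothelial (Kdr) and 0 stromal markers (8% of genes), and limma-voom the same 3 and 2 (17.4% of genes). No marker of either list was at 0 throughout. The part of these cells in the Peg3 and Cdkn1c values was not tested.

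Plagl1 (chr10:13090832-13131694, plus strand), a paternally expressed zinc finger factor that arrests the cell cycle, was the only tested member with a positive log2 fold change. It stood at 2.19, 1.42 and 2.36 CPM in WT and 1.85, 3.86 and 1.84 CPM in Nr2e3-/-. The higher mean came from Nr2e3-/- replicate 2 alone, and the other Nr2e3-/- tumors lay within the WT range. Its log2 fold change was 0.36 with a standard error of 0.37 (edgeR adjusted p = 0.584) and became -0.10 without that library. Fbxl7, an F-box protein gene, at 0.10 and Map1b, a microtubule-associated protein gene, at 0.12 log2 units were nearest in profile.

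Grb10 (chr11:11930499-12037428, minus strand) encodes an adaptor that dampens insulin and IGF receptor signalling and is maternally expressed in liver. It stood at 7.87, 11.6 and 5.20 CPM in WT and 5.43, 11.4 and 6.06 CPM in Nr2e3-/-. Each group had 1 tumor near 11 CPM, replicate 2 in both, and the others between 5.20 and 7.87. Between genotypes, Grb10 had a log2 fold change of -0.10 with a standard error of 0.38 (edgeR adjusted p = 0.897). Cmpk2, a nucleotide kinase gene, at 0.11 and Fam84b at 0.13 log2 units were closest in profile, and H19 was high in the same 2 tumors over a far wider range.

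**Figure D3:**
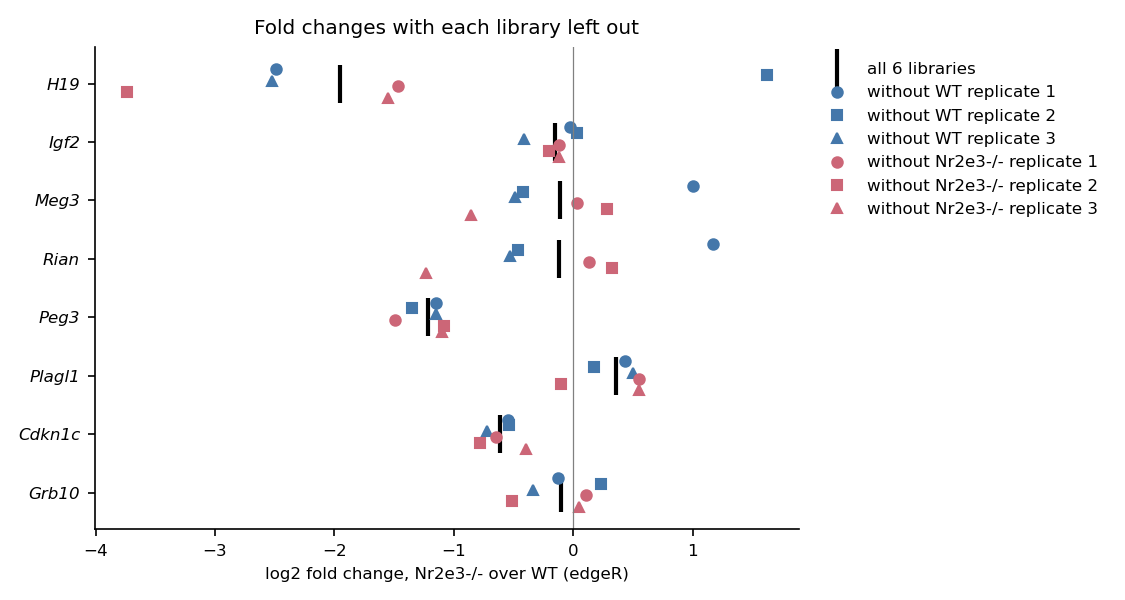
Log2 fold change of Nr2e3-/- over WT (horizontal axis, edgeR) for the 8 members tested, with all 6 libraries (black bar) and with each library left out (symbols). H19 moved between -3.74 and 1.62 and Rian between -1.23 and 1.17, whereas Peg3 stayed between -1.49 and -1.08 and Cdkn1c between -0.78 and -0.40.

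Levels between members were compared only per length, as RPKM, the normalized CPM divided by the kilobases of exon in the GENCODE annotation. By the median over the 6 libraries, H19 came first at 6.91 RPKM, followed by Grb10 at 1.36, Cdkn1c at 0.849, Peg3 at 0.451, Plagl1 at 0.376, Meg3 at 0.243, Igf2 at 0.197, Rian at 0.149, Dlk1 at 0.0328 and Mirg at 0.0227 RPKM. H19 and Grb10 held these places in every library, with a lowest H19 level of 3.88 RPKM. Meg3 stood above Rian in all 6 libraries by exon length, an order that depends on the length used. Igf2 could not be ordered against either given their spread, nor could Dlk1 against Mirg. Peg3 came before Plagl1 in WT, at 0.645 ± 0.107 against 0.370 ± 0.0928 RPKM (SD, n = 3), and overlapped with it in Nr2e3-/-, at 0.279 ± 0.0881 against 0.468 ± 0.216 RPKM. Rian stood at 0.265 RPKM when its longest transcript was used as the length.

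The wider set of imprinted genes was described with a list of 56 other symbols, of which 55 were found and 34 tested. At an unadjusted p under 0.05, 3 were higher and 7 lower in Nr2e3-/-, against 11.8% and 9.72% of all genes tested, and 0 passed the adjusted threshold in edgeR. The median log2 fold change was -0.08. The lowest p-value was that of Herc3, a ubiquitin ligase gene, with 8.75 ± 0.252 CPM (SD, n = 3) in WT and 3.09 ± 1.06 in Nr2e3-/-, a log2 fold change of -1.52 with a standard error of 0.24 (edgeR adjusted p = 0.0909). Herc3 was under 0.05 with DESeq2 (adjusted p = 5.46e-06) and without Nr2e3-/- replicate 1 (0.00193), as were Sgce, Impact and Zrsr1. DESeq2 called these 4 of the 35 genes of the list to which it gave an adjusted p, against 8% of all genes. Without that library, 11 of the 34 tested genes passed the adjusted threshold, against 21.8% of all genes.

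Impact, a paternally expressed translational regulator gene, stood at 21.04, 22.1 and 20.2 CPM in WT and 14.6, 14.0 and 11.4 CPM in Nr2e3-/-, a log2 fold change of -0.66 with a standard error of 0.13. Sgce, which encodes a sarcoglycan, had a log2 fold change of -0.67, Zrsr1 of -0.61 and Peg13 of -0.51. Airn, the paternally expressed antisense RNA that silences Igf2r, had 17 to 25 counts in WT and 2 to 8 in Nr2e3-/-, a log2 fold change of -1.75 with a standard error of 0.45 (edgeR adjusted p = 0.124). Igf2r, the maternally expressed receptor that clears IGF2, stood at 86.9 ± 5.15 CPM (SD, n = 3) in WT and 74.3 ± 1.22 in Nr2e3-/-, a log2 fold change of -0.23. Airn and Igf2r overlap on opposite strands, and the strand setting of the counting is not given in the sources used here, so their reads cannot be told apart.

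The 3 genes with higher values at an unadjusted p under 0.05 were Asb4 with a log2 fold change of 1.43, Blcap with 0.69 and Tssc4 with 0.41 (edgeR adjusted p of 0.134, 0.164 and 0.209). Asb4 counts were few, at 11 to 17 in 4 libraries, 23 in Nr2e3-/- replicate 3 and 53 in Nr2e3-/- replicate 2. Mest and Peg10, paternally expressed growth genes of placenta and embryo, had log2 fold changes of -0.13 (standard error 0.33) and 0.20 (standard error 0.19). Snrpn and Snurf share 1 transcript and had identical counts, so they give 1 measurement.

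**Figure D4:**
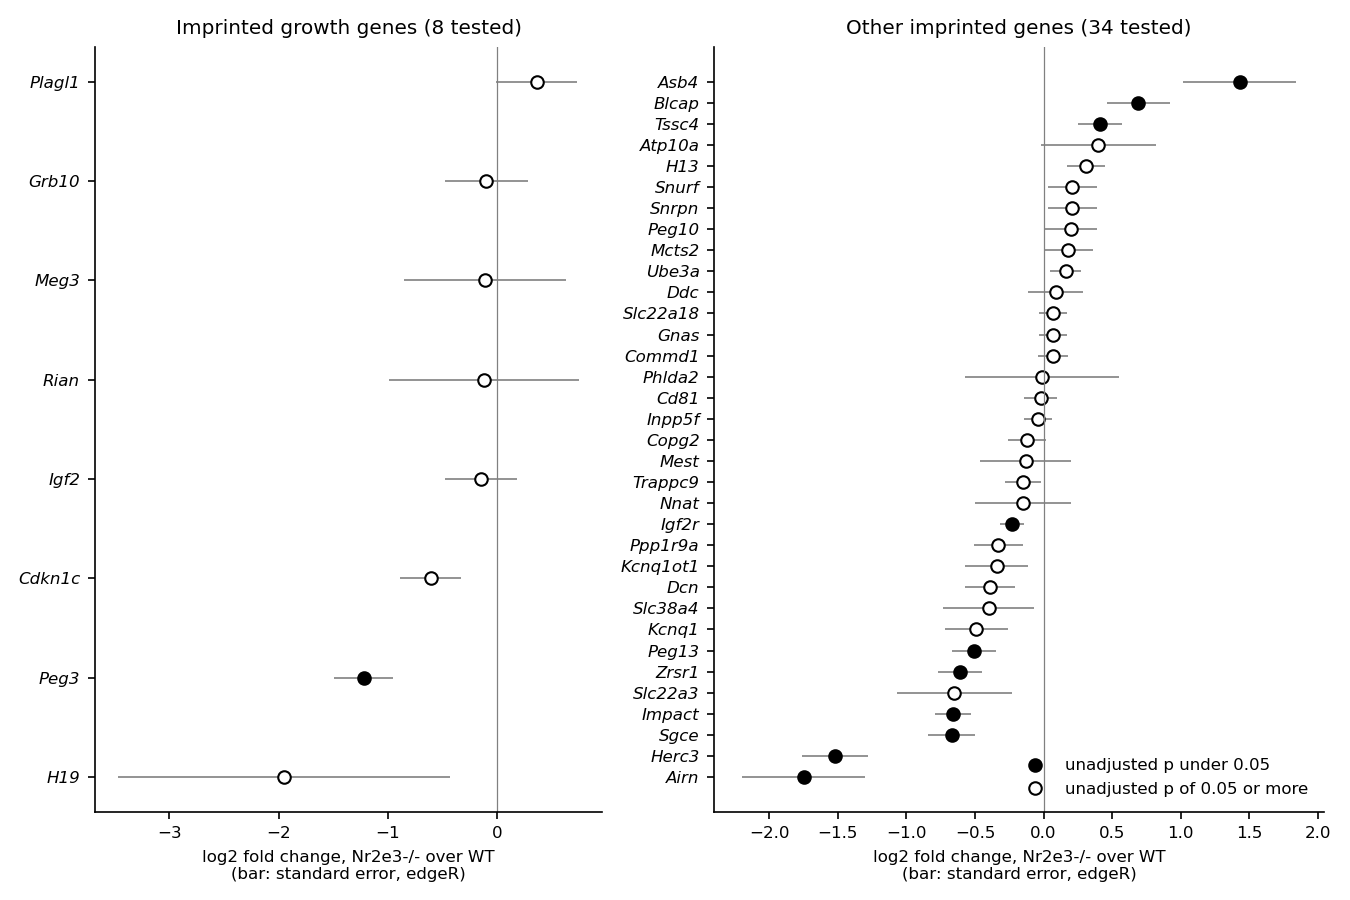
Log2 fold change of Nr2e3-/- over WT (horizontal axis, bars are standard errors from edgeR) for the 8 members tested (left) and 34 other imprinted genes tested (right), with filled points for an unadjusted p under 0.05. Peg3 was the filled member at -1.22, and 7 of the 10 filled points among the other genes lay below 0, from Airn at -1.75 to Igf2r at -0.23.

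The insulin-like growth factor (IGF) axis, in which Igf2, Igf2r and Grb10 act, was followed with 17 genes, 16 of them tested. Igf1, the adult liver ligand, was abundant and overlapped between groups, at 482.5 ± 82.4 CPM (SD, n = 3) in WT and 530 ± 82.3 in Nr2e3-/-, a log2 fold change of 0.14 with a standard error of 0.18. Of the receptors, Insr stood at 217.9, 204.2 and 214.9 CPM in WT and 155.3, 158.2 and 143.7 CPM in Nr2e3-/- (log2 fold change -0.48, standard error 0.10, edgeR adjusted p = 0.0963), whereas Igf1r had a log2 fold change of -0.11 with a standard error of 0.24. The Insr groups were separate, as were those of 6 of the 16 genes and of 26.8% of all genes tested. Its adjusted p was 6.40e-04 with DESeq2, which called 2 of the 16 genes and 8% of all genes. Igfals, the subunit that holds IGF complexes in plasma, had a log2 fold change of -0.42, and Igf2bp2, which binds IGF2 mRNA, of 1.56 with 3.86 and 3.73 CPM in Nr2e3-/- replicates 2 and 3 against 1.32 in replicate 1 and 0.902 to 1.18 in WT. In all, 1 gene of 16 was higher and 3 were lower at an unadjusted p under 0.05, against 11.8% and 9.72% of all genes tested. In edgeR, 0 passed the adjusted threshold (6 without Nr2e3-/- replicate 1, where 21.8% of all genes did), and the median log2 fold change was -0.26.

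Among 14 genes that set or keep imprints, 11 were tested, 1 had an unadjusted p under 0.05, against 21.5% of all genes tested, and 0 passed the adjusted threshold in edgeR. Dnmt1, the maintenance DNA methyltransferase, stood at 12.98, 13.8 and 14.8 CPM in WT and 14.1, 35.4 and 25.9 CPM in Nr2e3-/-. Nr2e3-/- replicate 1 lay within the WT range and the other 2 above it, and the log2 fold change was 0.86 with a standard error of 0.30 (edgeR adjusted p = 0.175, and 0.0060 without that library). The other 10 tested genes of this list, including Trim28, Ctcf and Zfp445, had an unadjusted p of 0.05 or more, with a list median of -0.16. Dppa3, which protects imprints in the early embryo, did not pass the filter with all libraries. It had 0, 1 and 1 counts in WT and 1, 27 and 13 in Nr2e3-/-. Without Nr2e3-/- replicate 1 it passed the filter only through the other Nr2e3-/- libraries, where it was high. Its call in that setting (edgeR adjusted p = 0.00591, where 21.8% of all genes were called) is therefore no separate support for a difference.

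Of 10 genes linked to the fetal state of hepatocytes, 7 were tested, 2 had an unadjusted p under 0.05, both higher in Nr2e3-/- (11.8% of all genes tested), and 0 passed the adjusted threshold in edgeR. These 2 encode repressors of fetal liver genes: Zbtb20 stood at 11.9 ± 1.49 CPM (SD, n = 3) in WT and 29.6 ± 10.6 in Nr2e3-/- (log2 fold change 1.31, standard error 0.28, edgeR adjusted p = 0.0987), and Zhx2 had a log2 fold change of 0.48 (edgeR adjusted p = 0.132). Afp, the fetal albumin-like protein, stood at 135, 43.5 and 19.9 CPM in WT and 28.7, 30.1 and 21.5 CPM in Nr2e3-/-. Only WT replicate 1, the WT tumor with high Meg3 and Rian, was far above the rest, and the Afp difference was within the spread (log2 fold change -1.30, standard error 0.62, edgeR adjusted p = 0.271). Gpc3, an oncofetal proteoglycan, was highest in WT replicate 1 and Nr2e3-/- replicate 1, at 135.6 and 147 CPM, libraries in which H19 stood at 17.05 and 8.87 CPM.

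Genes next to the imprinted clusters, taken here as not imprinted, served as a local comparison. The counts do not show which parental copy of a gene was used. Of 12, 10 were tested, and 3 had an unadjusted p under 0.05, all higher in Nr2e3-/- (11.8% of all genes tested). Wars, a tRNA synthetase gene near Dlk1, stood at 21.9, 21.7 and 17.4 CPM in WT and 33.9, 38.5 and 41.75 CPM in Nr2e3-/- (log2 fold change 0.90, standard error 0.14, edgeR adjusted p = 0.0844). Cobl beside Grb10 had a log2 fold change of 0.92 and Ltv1 near Plagl1 of 0.88, while Grb10 and Plagl1 overlapped between groups. Without Nr2e3-/- replicate 1, Wars, Cobl and Ltv1 passed the adjusted threshold (edgeR adjusted p of 0.00585, 0.00442 and 0.00434), where 21.8% of all genes did.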

How the data were processed

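RNA was measured in 6 liver tumor libraries, 3 WT and 3 Nr2e3-/-, grouped by the genotype in their titles; dose, age and time point come from the study's methods. The deposited table holds raw counts per gene: the authors aligned single-end reads of TruSeq libraries to mm10 with TopHat and counted them with featureCounts (strand setting and annotation not given in the sources used here). A normalized copy of the counts and the authors' own comparison of the groups (fold changes and p-values) were also deposited and not used. Depth was 15376261 to 28690279 counts per library, so 3 counts, the limit that a count of 0 allows, equal 0.105 to 0.195 CPM before scaling.

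The counts were tested with edgeR 4.0.16 (R 4.3.3): filterByExpr (minimum count 10, minimum total 15), TMM, quasi-likelihood F test, two-sided, Benjamini-Hochberg adjustment over 13572 genes, threshold 0.05. Scripts were tested on simulated data. Log2 CPM used a prior count of 2. Single members were also compared by a two-sided exact permutation test of normalized CPM. RPKM used exon lengths of GENCODE M21, and positions, promoters and microRNAs came from RefSeq GRCm38.p6, in which all 17 nested microRNA genes matched a row of the counts. Alternatives were RLE or upper quartile scaling, DESeq2 1.42.0, limma-voom (limma 3.58.1), no filter, at least 10 counts in every library, a replicate block, and leaving out each library. Figures used Python 3.11.15 and matplotlib 3.10.9.

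Named genes were all 10 members with their values, every gene of the other lists with an unadjusted p under 0.05 together with Igf1, Igf1r, Igf2r, Mest, Peg10, Afp, Gpc3, Dnmt1, Zhx2 and Zbtb20, the 2 nearest profiles of each tested member, nested microRNA genes and genes of the same cluster. Ptprc, Pecam1, Cdh5, Clec4g, Vwf, Kdr, Emcn, Stab2, Eng, Col1a2 and Col3a1 were named after their values were seen. So were Dppa3, Snrpn, Snurf, Trim28, Ctcf and Zfp445. The members and lists were chosen with earlier results of these data known.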

Additional observations from a re-analysis of the deposited data

How the results depend on the processing

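Under 13 alternatives per result, the log2 fold changes of Peg3 and Cdkn1c stayed negative. Leaving out each library in turn gave -3.74 to 1.62 for H19 (1.62 without WT replicate 2), -0.41 to 0.03 for Igf2 (0.03 without WT replicate 2), -0.86 to 1.0 for Meg3, -1.23 to 1.17 for Rian, -0.10 to 0.55 for Plagl1 (-0.10 without Nr2e3-/- replicate 2) and -0.51 to 0.23 for Grb10. Meg3 was also positive without Nr2e3-/- replicate 1 (0.03) or 2 (0.28) and Rian likewise (0.13 and 0.32), and Grb10 without WT replicate 2 (0.23) or Nr2e3-/- replicate 1 (0.11) or 3 (0.05). limma-voom gave 0.44 for Meg3 and 0.54 for Rian. The median over the members tested was -0.63 to -0.05 with a library left out. DESeq2 gave H19 no adjusted p.

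Calls at an adjusted p under 0.05 depended on the tool and on Nr2e3-/- replicate 1, and the cause was not tested. Among members, Peg3 was the 1 call with DESeq2, limma-voom (log2 fold change -1.36) and without that library, with 0 to 1 over the libraries left out. Over all genes, 13 passed in edgeR, 8 with upper quartile scaling, 1096 with DESeq2, 2360 with limma-voom, 70 without the filter, 7 with at least 10 counts in every library, and 0 to 3022 with a library left out, the latter without Nr2e3-/- replicate 1. Other imprinted genes gave 4 calls with DESeq2, 10 with limma-voom, 1 without the filter and 0 to 11 with a library left out. The IGF axis gave 2, 5 and 0 to 6, and fetal liver genes 2, 2 and 0 to 2. Imprint maintenance genes gave 1 with limma-voom and 0 to 2 with a library left out, Dppa3 among these 2. At an unadjusted p under 0.05, all genes gave 4981 with limma-voom and 1693 to 5220 with a library left out, and members gave 2 with limma-voom, 2 with at least 10 counts in every library and 1 to 2 with a library left out.

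The labels do not say whether replicate numbers pair the samples. Deviations from the group means of same-numbered libraries correlated at -0.077, 0.221 and 0.023, and not every library correlated best with its own number. With so few libraries, each centred on its group mean, these correlations cannot decide whether the samples were paired. With the replicate block, 0 genes had an adjusted p under 0.05 and 0 members did, H19 had a log2 fold change of -0.88, Meg3 of 0.00, and Peg3 of -1.23 (edgeR adjusted p = 0.149). Depth limited Dlk1, Mirg and the nested microRNA genes, most of which had under 10 counts per library.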
